A study of Sus scrofa with 5 samples.

Results

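Human transcripts were examined in a kidney biopsy taken 12 h after a pig kidney had been transplanted into a human recipient, the second case of the study. A transcript was selected when its symbol in the human count table had at most 3 counts in the 2 control libraries together and at least 10 counts at 12 h. The rule took 864 of 59117 symbols (1.46%), or 4.78% of the 18086 symbols with 10 or more counts at 12 h. These selected symbols are called human transcripts below because pig kidney RNA alone gave them almost no counts. The species of a single read cannot be told from these tables. The 3 xenograft groups were 1 biopsy each, taken at 12, 24 and 48 h after transplantation. The protocol in the labels describes core biopsies, whereas their cell type field names dissociated cells, and the protocol was followed here. The control group was 2 libraries of untransplanted kidney at 0 h, which the labels list as replicates 1 and 2. All 5 libraries were pig kidney total RNA depleted of ribosomal RNA and sequenced in bulk. The labels used here do not give the genotype of the pig, the recipient's treatment, or whether the control libraries came from separate animals. All biopsies came from a single graft and recipient, so the times have no replicates of their own.

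Neutrophils are short-lived blood phagocytes that leave the circulation early in inflammation, guided by chemokines, formyl peptides and complement fragments. Mature neutrophils carry large amounts of the messages for S100A8 and S100A9, which together form calprotectin, and display the Fc receptor FCGR3B and the receptor for granulocyte colony-stimulating factor, CSF3R. Monocytes share S100A8, S100A9 and CSF3R with them, whereas FCGR3B is largely a neutrophil gene. Most granule proteins are transcribed earlier, in precursors of the bone marrow, so circulating neutrophils hold little of their mRNA. In a transplanted kidney, such transcripts can come from cells in the vessels as well as from cells in the tissue.

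The deposited pig-table totals ranged from 56129926 to 71108823 counts, and the human-table totals from 13384784 to 19734208. The human table held 31.2 counts per 100 pig-table counts at 12 h, against 22.8 and 18.8 in control replicates 1 and 2. The controls held untransplanted kidney, so their human-table counts are pig reads assigned to human genes, and such reads are in the human table at 12 h too. The selected symbols summed to 97725 counts at 12 h, against 430 and 338 counts in the controls. That sum was 0.495% of the human-table total at 12 h. The mitochondrial share of pig-table counts was 12.0% at 12 h, against 21.9% and 33.4% in the controls. Its part in the values below was not tested, except that leaving those genes out of the pig-table totals moved the median ratios between times little.

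The counts were very uneven among the human transcripts. The median selected symbol had 25 counts at 12 h, with quartiles of 14 and 74 and a highest value of 7389. Only 278 symbols had 50 or more counts and 14 had 1000 or more, and the top 25 symbols held 44.3% of the sum. In the controls, 452 symbols had 0 counts in both libraries, and 178, 112 and 122 had 1, 2 or 3 counts in the pair together.

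**Figure D1:**
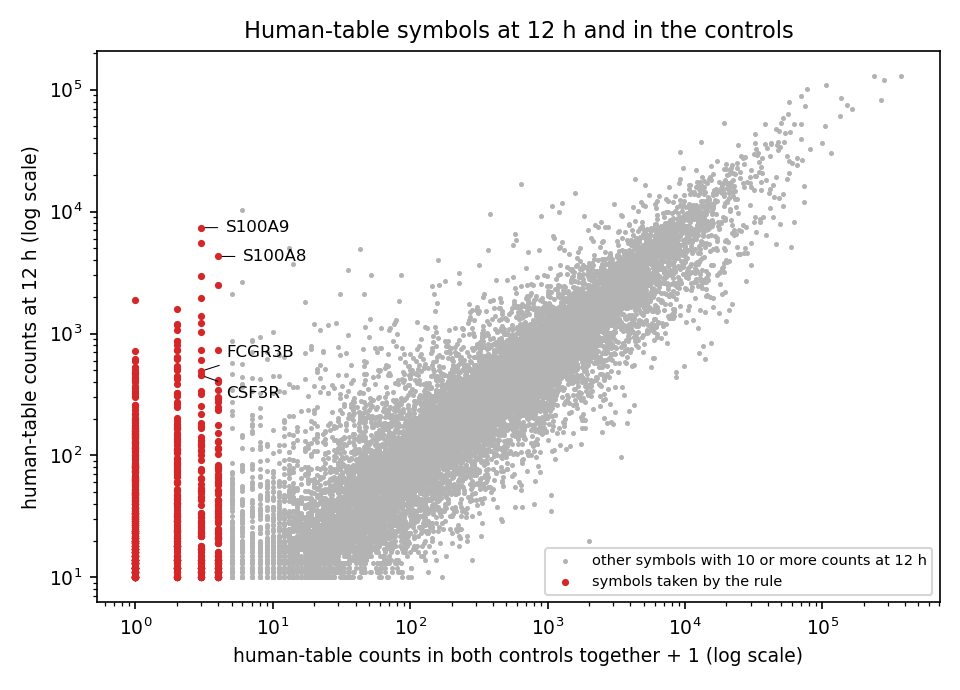
Human-table counts at 12 h (y axis, log scale) against the summed counts of both controls plus 1 (x axis, log scale) for every symbol with 10 or more counts at 12 h. Red points are the 864 symbols taken by the rule and grey points are the others, which lie mostly along a rising band of pig kidney background. S100A9 and S100A8 stand at 7389 and 4287 counts at 12 h with 2 and 3 counts in the controls together.

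The limits of the rule cut through genes of the same kind. At the count limit, 63 selected symbols had exactly 10 counts at 12 h, and 75 symbols missed the rule with 9. At the control limit, 110 symbols with 10 or more counts at 12 h missed it with 4 control counts. Among those just outside were leukocyte genes with large counts. The lysozyme gene LYZ had 10253 counts at 12 h, against 1 and 4 in the controls. FCN1, which encodes the monocyte lectin ficolin-1, had 2654 counts at 12 h, against 4 and 1 in the controls. HLA-DPA1, a chain of an MHC class II molecule, had 2117 counts at 12 h, against 1 and 3 in the controls. The complement C5a receptor gene C5AR1 had 385 counts at 12 h, against 2 and 3 in the controls. These genes are not counted below, so a list's number of selected symbols is a lower figure than its number of genes with human reads.

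The 4 genes taken as markers of human neutrophils were all selected. Selection restates the rule, so it is not a separate check for neutrophils. Monocytes share 3 of them, and FCGR3B is a near-identical copy of FCGR3A with unknown sharing of reads. S100A9 had 7389 counts at 12 h, against 1 and 1 in control replicates 1 and 2. S100A8 had 4287 counts at 12 h, against 2 and 1 in the controls. FCGR3B had 491 counts at 12 h, against 1 and 1 in the controls. Each stood at 1 or 2 counts in a control library. CSF3R had 455 counts at 12 h, against 0 and 2 in the controls. Scaled by pig-table totals, S100A9 was 8005-fold higher at 12 h than in the controls (95% counting interval 2215 to 66120) and FCGR3B was 532-fold higher (146 to 4405). The width of these intervals comes from the few control counts. Because the rule used this contrast, the folds are a description and carry no test. In bulk tissue, more cells of a type and more RNA per cell cannot be told apart.

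Summed over selected symbols, the list of calprotectin and its relatives held the highest counts of the 24 lists at 12 h. Of 7 S100 genes listed, 4 were selected, with 11965 counts in all. S100A12, which encodes calgranulin C of neutrophils and monocytes, had 249 counts at 12 h and 0 in both controls, at least 180-fold higher when a floor of 3 counts over both controls is used. S100P had 40 counts at 12 h and 0 in both controls. The other S100 genes missed the rule through their control counts. S100A6, a gene of many cell types, had 11674 counts at 12 h, against 567 and 694 in the controls.

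Receptors by which neutrophils sense their surroundings were broadly represented, with 14 of 25 listed symbols selected. The formyl peptide receptor genes FPR1 and FPR2 had 1021 and 309 counts at 12 h, against 2 and 0 for FPR1 and 0 and 0 for FPR2 in the controls. CXCR1 and CXCR2, which encode receptors for CXCL8, had 169 and 163 counts at 12 h, against 2 and 0 for CXCR1 and 0 and 0 for CXCR2 in the controls. LTB4R, the leukotriene B4 receptor, had 84 counts at 12 h and 0 in both controls. TREM1, an amplifier of myeloid activation, had 98 counts and 0 in both controls, and the neutrophil antigen gene CD177 had 37 and 0. Of the listed receptors that missed the rule, 9 had too many control counts and 2 had fewer than 10 counts at 12 h. FCGR3B and FCGR3A are near-identical copies, as are CXCR1 and CXCR2 in part, and how the authors' counting shared reads between them is not given in the sources used here.

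Few granule genes were selected. Of 22 listed granule protein genes, 6 were selected, with 252 counts in all at 12 h. MMP25, a membrane protease of leukocytes, had 75 counts at 12 h, against 0 and 2 in the controls, and the neutrophil collagenase MMP8 had 19 against 0 and 0. Of the other 16 granule genes, 11 had fewer than 10 counts at 12 h and 5 exceeded the control limit, LYZ among them. MPO, the myeloperoxidase gene, had 5 counts at 12 h against 1 and 0 in the controls. ELANE, which encodes neutrophil elastase, had 2 counts at 12 h, against 0 and 0 in the controls. The lactoferrin gene LTF had 18 counts at 12 h, against 4 and 4 in the controls. Of 20 listed neutrophil enzyme and survival genes, 3 were selected and 17 exceeded the control limit. NCF1, a cytosolic subunit of the NADPH oxidase with near-identical pseudogenes, had 131 counts at 12 h, against 2 and 0 in the controls. PADI4, which encodes the histone-citrullinating enzyme of neutrophil traps, had 12 counts at 12 h and 0 in both controls.

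**Figure D2:**
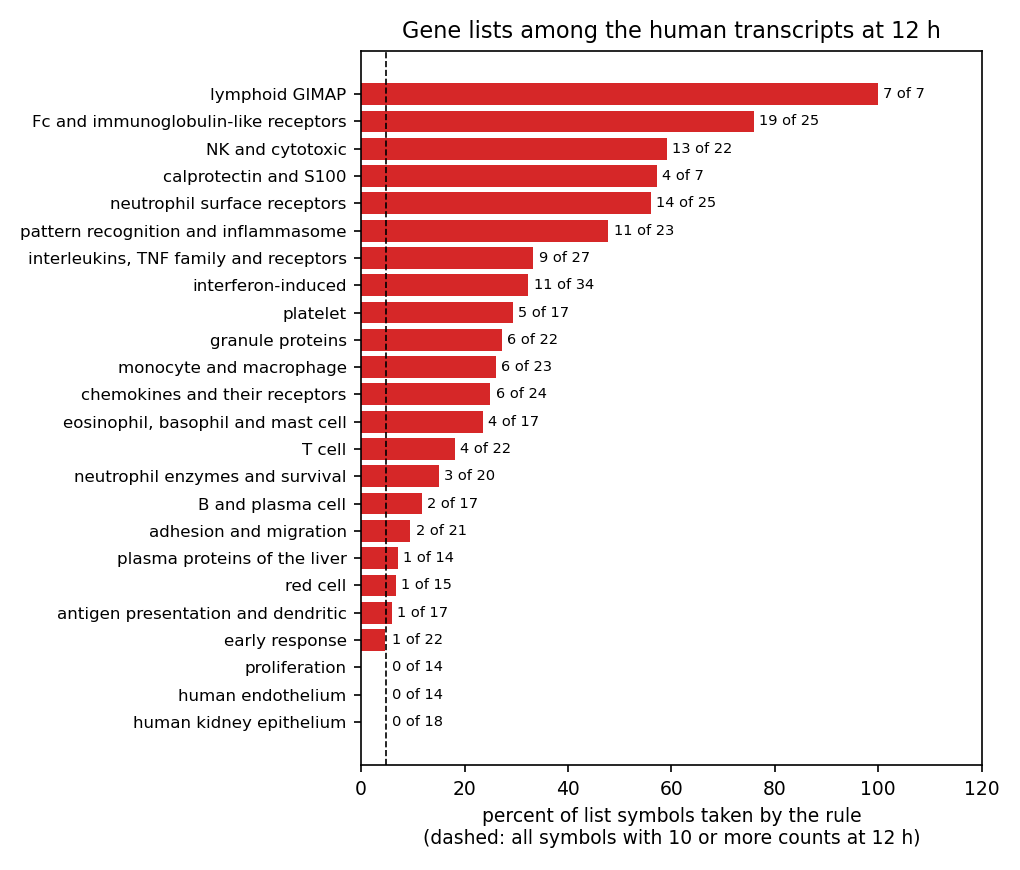
Percent of each gene list's symbols taken by the rule (x axis), with the number selected of the number in the table beside each bar. The dashed line marks the 4.78% of all symbols with 10 or more counts at 12 h, whereas the bars also count list symbols under 10. Over all symbols of the human table the share was 1.46%. The neutrophil receptor bar stands at 14 of 25, below the GIMAP, Fc receptor, NK and S100 bars. The kidney epithelium, endothelium and proliferation lists have 0 selected each, mostly because their genes exceeded the control limit.

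Monocyte and macrophage genes were selected beside those of neutrophils. Of 23 listed monocyte and macrophage symbols, 6 were selected and 16 exceeded the control limit. MS4A6A, a monocyte and macrophage membrane protein gene, had 1958 counts at 12 h, against 0 and 2 in the controls. CD14, which encodes a co-receptor for bacterial lipopolysaccharide, had 457 counts at 12 h, against 1 and 1 in the controls. MARCO, a scavenger receptor gene of macrophages, had 327 counts at 12 h, against 1 and 0 in the controls. CD163, a haemoglobin scavenger receptor gene, missed the rule with 9550 counts at 12 h against 202 and 180 in the controls. MNDA, a nuclear antigen gene of myeloid cells, had 1216 counts at 12 h, against 1 and 1 in the controls. S100A8, S100A9, FPR1 and CSF3R are also expressed by monocytes, and the shares of the cell types were not estimated.

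Of the listed Fc receptors and immunoglobulin-like receptors, 19 of 25 were selected. FCGR3A, the IgG receptor of NK cells and of some monocytes, had 2961 counts at 12 h, against 2 and 0 in the controls. LILRB2, an inhibitory receptor for MHC class I, had 810 counts at 12 h, against 0 and 1 in the controls. LILRA2 had 474 counts and LILRB1 had 449 counts at 12 h, with 0 and 1 counts in the controls together. CD300E, an activating receptor gene of monocytes, had 437 counts at 12 h and 0 in both controls. Leukocyte receptor genes of this kind lie in families of similar sequence, and reads could be split among their members.

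Innate sensors were selected in 11 of 23 cases. TLR8, a receptor for single-stranded RNA, had 523 counts at 12 h, against 1 and 0 in the controls. CLEC7A, which encodes the beta-glucan receptor dectin-1, had 339 counts at 12 h, against 2 and 0 in the controls. The inflammasome genes NLRC4, MEFV and PYCARD had 168, 136 and 124 counts at 12 h, and none had more than 2 counts in the controls together. These sensors are shared by neutrophils and monocytes.

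Both cytokine genes and cytokine receptor genes were selected. Of 27 listed interleukin and TNF family genes and receptors, 9 were selected. IFNGR1, a chain of the interferon gamma receptor, had 1579 counts at 12 h, against 0 and 1 in the controls. The decoy receptor gene IL1R2 had 444 counts at 12 h, against 0 and 1 in the controls. TNF had 54, IL1B had 52 and IFNG had 34 counts at 12 h, with at most 2 counts in the controls together. Among chemokine genes and receptors, 6 of 24 were selected, led by the interferon-induced CXCR3 ligand CXCL11 with 152 counts at 12 h, against 2 and 1 in the controls. CXCL8, the main neutrophil attractant, had 19 counts at 12 h and 0 in both controls.

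Lymphoid genes divided by cell type. All 7 listed GIMAP genes, which encode GTPases of lymphocytes and other leukocytes, were selected, with GIMAP6 at 1075 counts at 12 h against 1 and 0 in the controls. Of 22 NK and cytotoxic symbols, 13 were selected. The perforin gene PRF1 had 201 counts at 12 h, against 1 and 0 in the controls. NKG7 and KLRD1 had 187 counts each and the granulysin gene GNLY had 179, all with 0 in both controls. KLRF1, also on the NK list, was selected with 0 counts in both controls, whereas NCAM1 was not selected. NCR1, a defining NK receptor gene, had 0 counts at 12 h and in both controls. T cell symbols were selected in 4 of 22 cases, led by CD4, also a monocyte gene, with 306 counts at 12 h against 1 and 0 in the controls. CD247 and CD2, which NK cells also express, had 46 and 29 counts at 12 h, against 1 and 1 for CD247 and 1 and 0 for CD2 in the controls, and CD8A had 14 against 0 and 0. Of the defining T cell genes, CD3D had 3 counts and CD3G had 2 counts at 12 h, against 0 and 0 for CD3D and 11 and 3 for CD3G in the controls. CD3E missed the rule with 16 counts at 12 h, against 4 and 2 in the controls. Of 17 B and plasma cell symbols, 2 were selected. CR2, a complement receptor gene, had 43 counts at 12 h, against 0 and 2 in the controls, and the B cell receptor gene CD79B had 21 against 0 and 0. MS4A1 and CD79A had 1 and 3 counts at 12 h.

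Platelet and red cell messages were present. Of 17 platelet symbols, 5 were selected. PPBP and PF4, chemokine genes of platelet granules, had 129 and 45 counts at 12 h, against 1 and 0 for PPBP and 0 and 0 for PF4 in the controls. GP9, a defining platelet glycoprotein gene, had 3 counts at 12 h and 0 in the controls. The haemoglobin gene HBA2 was selected with 130 counts at 12 h, against 1 and 2 in the controls, while its near-identical copy HBA1 had 2, a division that rests on how reads were assigned. HBB missed the rule with 4964 counts at 12 h, against 26 and 16 in the controls. Of 17 eosinophil, basophil and mast cell symbols, 4 were selected. Among them were CCR3 and RNASE3, each with 10 or more counts at 12 h and 0 in both controls. RNASE2, expressed by eosinophils, monocytes and neutrophils, was also selected, with 465 counts at 12 h against 0 and 0 in the controls. The eosinophil genes CLC and SIGLEC8 had 1 and 0 counts at 12 h.

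Lists of kidney epithelium, endothelium and dividing cells gave no selected symbols. Of 18 listed kidney epithelium genes, 14 endothelial genes and 14 proliferation genes, 0 were selected in each list. The control limit alone removed 17, 13 and 12 of them. The rule therefore cannot show whether human cells of these kinds were present. UMOD, the uromodulin gene of the loop of Henle, had 88719 human-table counts at 12 h, against 37787 and 31716 in the controls, which shows the size of the pig background. Of 14 liver plasma protein genes, SERPINA1, which encodes alpha-1 antitrypsin and is also expressed by monocytes and neutrophils, was selected with 1390 counts at 12 h against 1 and 1 in the controls. Albumin (ALB) had 1 count at 12 h.

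Mitochondrial genes of the human genome supplied 7 selected symbols and 12.7% of the summed counts at 12 h. MT-CO3, a subunit of cytochrome oxidase, had 5517 counts at 12 h, against 2 and 0 in the controls. MT-ATP6, of the ATP synthase, had 2514 counts at 12 h, against 0 and 3 in the controls, and MT-ND2, of complex I, had 1900 against 0 and 0. Other mitochondrial genes carried a pig background and missed the rule. MT-CO1 had 14132 counts at 12 h, against 6229 and 10691 in the controls, and MT-ND1 had 4944 against 6185 and 9766. Human mitochondrial counts do not name a cell type, and nuclear copies of these genes could share their reads.

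**Figure D3:**
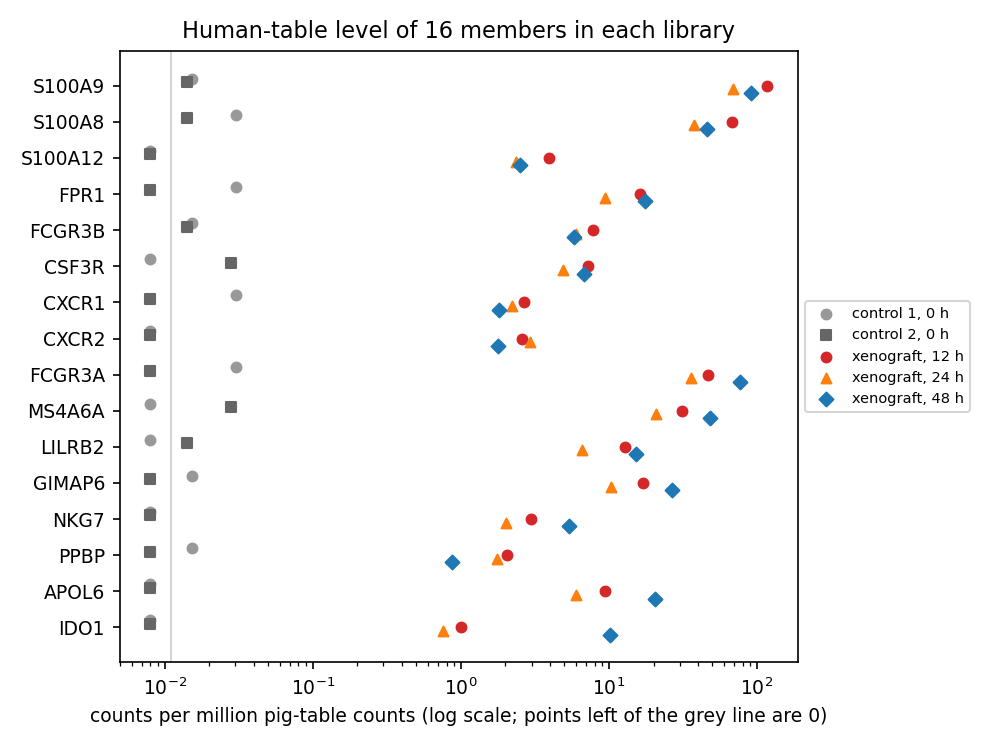
Level of 16 selected genes in each library, as human-table counts per 1000000 pig-table counts (x axis, log scale), with 1 point per library and points left of the grey line at 0. S100A9 and S100A8 lie highest at 12 h, all 16 genes lie far above the 2 controls at 12, 24 and 48 h, and IDO1 lies farthest right of its 12 h point at 48 h.

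The later biopsies were not used to choose the transcripts. At 24 h, 611 of the 864 symbols (70.7%) had 10 or more counts, against 96.4% of all symbols with 10 or more counts at 12 h. At 48 h, 758 symbols (87.7%) had 10 or more counts, against 97.0%. The whole table holds many symbols of higher counts, so the shares are not like for like. Only 4 selected symbols at 24 h and 2 at 48 h had 0 counts. Scaled to counts per 1000000 pig-table counts, the selected symbols summed to 1545 at 12 h, 1041 at 24 h and 2394 at 48 h. The sum was lowest at 24 h and highest at 48 h, and the same rule applied to the other times took 669 symbols at 24 h and 1123 at 48 h. Choosing symbols by a minimum at 12 h favours ratios of later times to 12 h that lie under 1, most of all for small counts. The overall ratios are therefore given for the 278 symbols with 50 or more counts at 12 h. List medians use all selected symbols of a list, so this applies to them.

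At 24 h the median ratio to 12 h of these 278 symbols was 0.634, with quartiles of 0.541 and 0.760. Only 8 of them (2.88%) had a ratio over 1, against 31.8% of all 13998 symbols with 50 or more counts at 12 h. The 95% counting interval lay under 1 for 217 symbols and over 1 for 3. CD14 was one of the 3, with 748 counts at 24 h against 457 at 12 h, a ratio of 1.56 (1.39 to 1.76). At 48 h the median ratio to 12 h was 1.55, with quartiles of 1.11 and 1.91. A ratio over 1 was found for 228 symbols (82.0%), against 62.5% of all symbols, and the interval lay over 1 for 186 symbols and under 1 for 34. These intervals cover counting error within single biopsies, not the spread between biopsies. The other 13720 symbols had median ratios of 0.900 at 24 h and 1.08 at 48 h.

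The calprotectin transcripts made a smaller part of the selected counts at 48 h than at 12 h. S100A8 and S100A9 together made 11.9% of the counts of all selected symbols at 12 h, 10.2% at 24 h and 5.72% at 48 h. S100A9 had 7389, 4550 and 5107 counts at 12, 24 and 48 h, and S100A8 had 4287, 2486 and 2586. After scaling, S100A9 stood at 0.779 of its 12 h level at 48 h (0.751 to 0.807) and S100A8 at 0.680 (0.647 to 0.714). Both genes were below their 12 h level in both later biopsies. FCGR3B had 491, 397 and 327 counts, with a scaled ratio of 0.750 at 48 h to 12 h (0.650 to 0.865). CSF3R had 455, 325 and 379 counts, and its ratio at 48 h of 0.939 had an interval that includes 1 (0.817 to 1.08).

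Across the neutrophil surface receptor list, the 14 selected symbols had a median ratio of 0.654 at 24 h and 0.818 at 48 h, and 4 of 14 were over 1 at 48 h. CXCR2 had 163, 195 and 100 counts at 12, 24 and 48 h. CXCR1 had 169, 146 and 102 counts, and FPR1 had 1021, 627 and 987. CD177 had 37, 19 and 7 counts, a ratio at 48 h of 0.213 (0.0802 to 0.484). The receptors for CXCL8 and CD177 were lowest at 48 h, whereas FPR1 was near its 12 h level. The 4 selected S100 genes had a median ratio at 48 h of 0.659 and the 6 selected granule genes 0.710, with 0 selected symbols over 1 in each list. The platelet list was lower still, with a median of 0.428 and 0 of 5 over 1. PF4 had 45, 29 and 9 counts at 12, 24 and 48 h, and PPBP had 129, 116 and 49. The S100 and granule medians cover selected genes only. Of granule genes over the control limit, ratios at 48 h were 1.345 for LYZ, 3.58 for LCN2 and 15.7 for CHI3L1. LTF had 0.626 and MMP9 0.915. The whole granule list, mostly LYZ, had 10672 counts at 12 h and 12904 at 48 h. Of unselected S100 genes, S100A4 had 1.80, S100A11 1.56 and S100A6 0.999. Unselected genes can carry pig reads.

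The monocyte, NK, GIMAP and T cell lists lay above their 12 h level at 48 h. The monocyte and macrophage list had a median ratio of 1.77 with 5 of 6 symbols over 1, and the NK list 1.81 with 12 of 13. All 7 GIMAP genes were over 1, with a median of 1.73, and all 4 T cell symbols were over 1 with a median of 2.69. These 4 were CD4, also a monocyte gene, CD247 and CD2, also expressed by NK cells, and CD8A. The defining T cell genes CD3D, CD3E and CD3G were not selected. FCGR3A had 2961, 2376 and 4339 counts at 12, 24 and 48 h, a ratio at 48 h of 1.65 (1.57 to 1.73), where FCGR3B had 0.750. The eosinophil, basophil and mast cell list had a median of 0.914 at 48 h, with 1 of 4 symbols over 1. CD4 had 306, 238 and 728 counts, and PRF1 had 201, 189 and 449. The 7 mitochondrial genes made 12.7%, 16.01% and 15.01% of the selected counts at 12, 24 and 48 h. These lists were also below 1 at 24 h in the median, with values of 0.689 for monocytes, 0.685 for NK cells and 0.668 for GIMAP genes.

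The interferon and chemokine lists had the highest ratios at 48 h among lists with 3 or more selected symbols. The 11 interferon-induced genes selected had a median ratio of 2.75 at 48 h and 10 of 11 were over 1. APOL3 and APOL6, apolipoprotein L genes induced by interferon, had 355, 221 and 1021 counts and 598, 397 and 1140 counts at 12, 24 and 48 h. ISG15, a ubiquitin-like modifier, had 65, 52 and 188 counts. The 6 chemokine symbols had a median of 3.15 and all 6 were over 1. CXCL11 had 152, 137 and 851 counts, a ratio at 48 h of 6.31 (5.30 to 7.55). IDO1, which encodes a tryptophan-degrading enzyme induced by interferon gamma, had 63, 50 and 574 counts, the highest ratio at 48 h of all 278 symbols at 10.3 (7.90 to 13.5). Other symbols with high ratios were CALHM6 at 5.33, VOPP1 at 5.12, SLAMF8 at 4.92, APOL4 at 4.79 and the lymphocyte and myeloid receptor gene SLAMF7 at 4.78. VOPP1 is on neither of these lists.

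**Figure D4:**
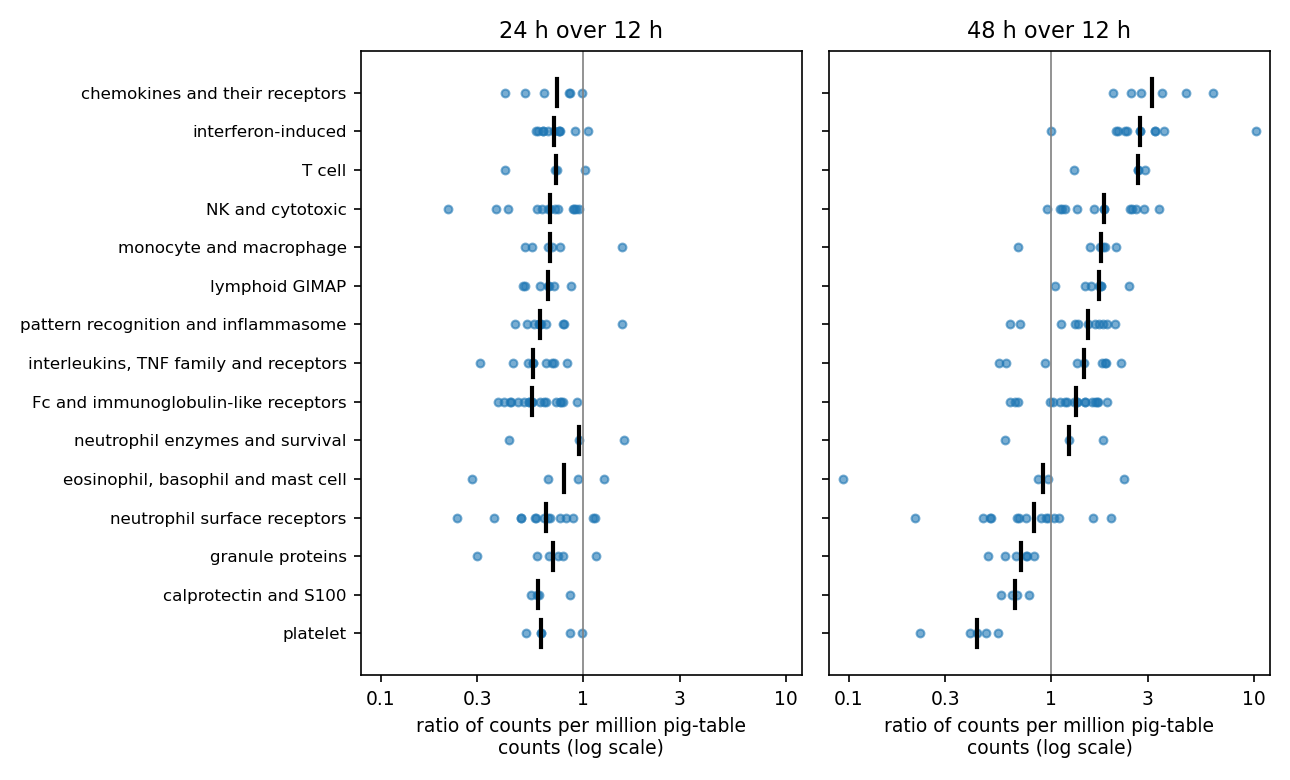
Ratio of counts per 1000000 pig-table counts at 24 h to 12 h (left) and at 48 h to 12 h (right), both on log axes, for the selected symbols of each list with 3 or more. Each point is 1 gene, black ticks are medians, and the grey line marks a ratio of 1; at 48 h the chemokine median is 3.15 and the interferon median 2.75, while the S100 median is 0.659 and the platelet median 0.428.

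A test across the whole human table was made with edgeR's quasi-likelihood test and Benjamini-Hochberg adjustment at 0.05, with 1 residual degree of freedom from the control pair. The lone biopsies are thereby assumed to vary like the 2 controls, and the contrasts with 12 h share that library with the rule. In the contrast the rule used, 35.6% of 19435 symbols were higher and 2.89% lower at 12 h than in the controls (6927 and 562 symbols). With TMM scaling the split was 4072 higher and 3470 lower. Of the selected symbols 860 of 863 tested were higher, which follows from the choice. At 24 h against 12 h, 0 selected symbols were higher and 1 was lower, beside 0.0257% of all symbols in each direction. The symbol was the ribosomal protein pseudogene RPS10P7, with 5 counts at 24 h and 131 at 12 h. At an unadjusted p under 0.05, 68 of 863 selected symbols and 571 of all 19435 symbols passed. DESeq2 called 0 in either direction, and TMM scaling called 6 lower. The median log2 difference at 24 h against 12 h was -0.71 over the selected symbols tested and -0.15 over all symbols tested.

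At 48 h against 12 h, 20 selected symbols were higher and 5 were lower, beside 1.24% and 0.149% of all symbols. IDO1 rose by 3.36 ± 0.58 on the log2 scale (SE, edgeR adjusted p = 3.35e-06) and CXCL11 rose by 2.66 ± 0.55 (edgeR adjusted p = 0.000409). CALHM6, VOPP1, SLAMF7, SLAMF8, APOL4, PLAAT4, OAS3 and CD38 were also called higher, with log2 changes between 1.84 and 2.41. With DESeq2 and the same pig-table scaling, 5 selected symbols stayed higher, namely IDO1, CXCL11, CALHM6, SLAMF7 and SLAMF8, and 0 were lower. With TMM scaling 67 were higher and 12 lower. The median log2 difference at 48 h against 12 h was 0.58 over the selected symbols and 0.17 over all symbols. Over whole lists, selected or not, 10 of 14 proliferation genes, 4 of 12 antigen presentation genes, 7 of 34 interferon-induced genes, 4 of 20 chemokine genes and 3 of 23 monocyte genes tested were called higher at 48 h and 0 lower. Genes outside the rule, the proliferation genes among them, can carry pig reads. Of 23 neutrophil receptor genes and 25 Fc and immunoglobulin-like receptor genes tested, 0 were called in either direction. Among the other neutrophil lists, 2 genes were called, which are named after their values were seen. The enzyme and survival gene NAMPT, which missed the rule with 1576 and 1443 control counts, fell by 1.89 ± 0.47 at 48 h against 12 h on the log2 scale (SE, edgeR adjusted p = 0.00815). CHI3L1 of the granule list, which missed the rule with 5 and 5 control counts, rose by 3.96 ± 0.64 (SE, edgeR adjusted p = 4.63e-07). The 4 neutrophil markers passed in neither direction. The edgeR log2 difference at 48 h against 12 h was -0.36 ± 0.47 (SE) for S100A9, -0.56 ± 0.49 for S100A8, -0.41 ± 0.52 for FCGR3B and -0.09 ± 0.52 for CSF3R. PF4 had a difference of -2.14 ± 0.79 with an edgeR adjusted p of 0.256. The lower share of S100A8 and S100A9 at 48 h is therefore a description of 2 single biopsies. Monocytes also express both genes, so it is not a measure of neutrophils alone.

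The pig table gave a second readout. Of the selected symbols, 335 (38.8%) also named a pig-table gene, against 62.1% of all symbols with 10 or more counts at 12 h, and 529 did not. For each shared symbol a ceiling was set: the human-table counts at 12 h that pig reads could give if 3 human-table counts had come from the pig-table counts of the controls and the pig-table counts then rose as they did. The human-table count exceeded this ceiling for 280 symbols and did not for 33. A further 9 symbols had pig-table counts at 12 h but none in the controls, and 13 had none in any of these libraries. S100A8 had 4287 human-table counts at 12 h and 10 pig-table counts, with a ceiling of 15. CSF3R had 455 human-table counts and 53 pig-table counts, with a ceiling of 3.79. CTSD, the cathepsin D gene, shows the other extreme of pig expression, with 475 human-table and 17540 pig-table counts at 12 h and a ceiling of 1.67.

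**Figure D5:**
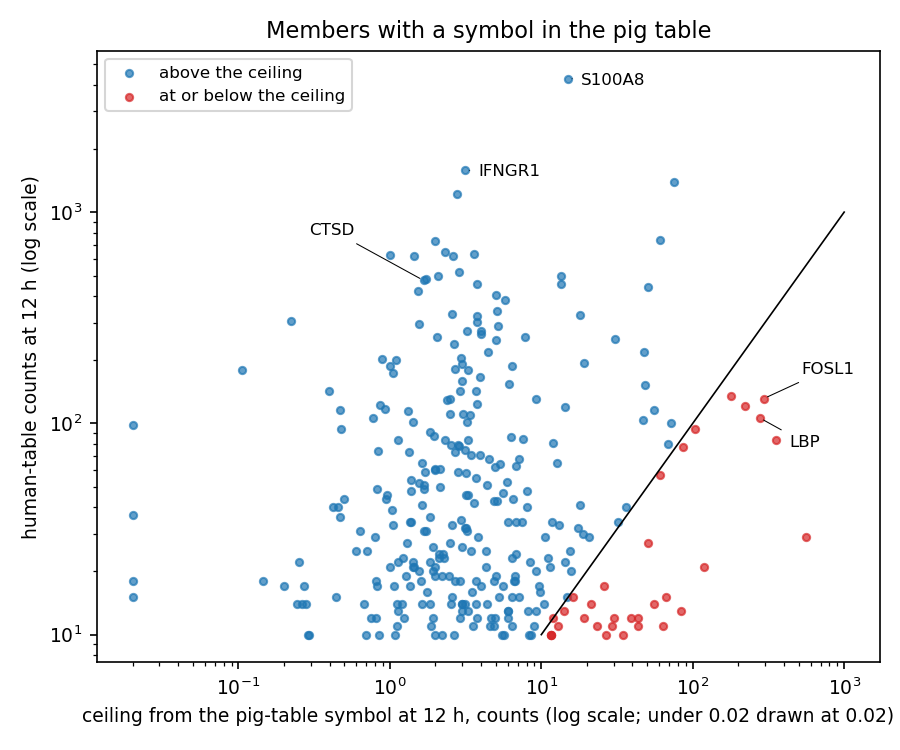
Human-table counts at 12 h (y axis, log scale) against the ceiling expected from the pig-table counts of the same symbol (x axis, log scale) for the selected symbols with a ceiling. The line marks equal values; the 280 blue points lie above it, S100A8 at 4287 counts over a ceiling of 15, and the 33 red points at or below it include FOSL1 and LBP.

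The 33 symbols at or below the ceiling and the 9 with no pig counts in the controls were genes whose pig-table counts were themselves much higher at 12 h. FOSL1, a stress-induced transcription factor gene, had 131 counts in the human table and 883 in the pig table at 12 h, against 7 and 2 pig-table counts in the controls. LBP, the lipopolysaccharide-binding protein gene, had 106 counts in the human table and 4536 in the pig table at 12 h, against 31 and 18 pig-table counts in the controls. For several of them, the human table held a similar number of counts per 100 counts of the pig table at each time. These were 14.8, 12.5 and 15.4 for FOSL1 and 2.34, 1.74 and 1.79 for LBP at 12, 24 and 48 h. ARG1, an arginase gene of human neutrophil granules, had 74 human-table counts with 219 pig-table counts at 12 h and 0 in both tables in the controls, so its species is uncertain. The 33 symbols held 1147 counts and the 9 held 304 counts at 12 h. For IDO1 the ratio was 252 at 12 h, 156 at 24 h and 1979 at 48 h, and for CXCL11 it was 24.9, 15.3 and 217, so their human-table counts moved apart from the pig-table counts.

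Several of the called symbols had pig-table counts that moved with them. Of the 20 symbols higher at 48 h than at 12 h, 6 had a pig-table ratio over 2, 6 had one between 0.5 and 2, 1 had one under 0.5 and 7 gave none. The pig-table ratios over 2 were those of COL17A1, SPC24, TCF19, MCM10, SLAMF8 and GM2A. COL17A1, a hemidesmosome collagen of epithelia, had 16.7, 13.4 and 14.8 counts in the human table per 100 in the pig table at 12, 24 and 48 h. Of the 5 lower symbols, 4 had a pig-table ratio under 0.5. SLAMF7 had 739 counts at 48 h against 174 at 12 h in the human table, while its pig-table counts were 21 at 48 h and 62 at 12 h.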

How the data were processed

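Total RNA of kidney biopsies was depleted of ribosomal RNA and sequenced in bulk, per the labels' protocols. The authors deposited raw counts per gene symbol in a pig and a human table. Human-table values were counted on hg38 per the submitters' processing notes. The aligner, counter, strand, annotation and any competition between genomes are not given in the sources used here. XIST, TSIX and Y-linked genes were removed, and haplotype-dependent genes (6 selected) are not named. Each library was scaled by its pig-table total. The selection rule, the 24 gene lists (460 symbols) and the rule for named genes (the 25 highest at 12 h, up to 6 per list with defining markers, the 10 highest and 10 lowest ratios at 48 h, and genes next to the limits) were chosen with earlier results of these data known. The ceiling and the gene families were chosen after their values were seen. A defining marker was named whether or not it was selected. The human table was fitted with edgeR 4.0.16 in R 4.3.3 (filterByExpr, minimum count 10 and total 15, 19435 symbols), after the steps were tested on simulated data. DESeq2 1.42.0, TMM, human-table totals and no filter were alternatives. Each ± is an approximate SE. Intervals are exact at 95%, Poisson for counts and conditional binomial for ratios, and with the floor of 3 counts they cover counting error only, because the reads carry no molecular identifiers and may repeat a molecule. The control libraries differed by more than sampling noise (chi-square per degree of freedom 13.4 over 17629 human-table symbols) and entered as 2. The p-values measure only the spread between these libraries, which may be technical. Values were not compared as levels between genes, because transcript lengths were not used. Some genes are not reported here.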

Additional observations from a re-analysis of the deposited data

How the results depend on the processing

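The number of selected symbols (864) was set by its limits. It was 452 with 0 control counts allowed, 1521 with 10 allowed, 517 with at least 20 counts at 12 h and 1501 with at least 5, and between 1206 and 1333 when 1 control was left out. It was 864 after scaling and 822 without the symbols under the pig-table ceiling. Of the symbols, 611 had 10 or more counts at 24 h and 394 had 20 or more. Among those with 0 control counts, 311 had 10 or more at 24 h and 406 at 48 h. Among those with 50 or more counts at 12 h, 277 had 10 or more at 24 h and 275 at 48 h. The median ratio to 12 h at 24 h (0.608) was 0.655 with human-table totals, 0.637 unscaled, 0.626 without pig mitochondrial genes, 0.588 for symbols with 0 control counts and 0.634 for those with 50 or more counts. At 48 h (1.495) it was 1.40 with human-table totals, 1.33 unscaled, 1.55 for those with 50 or more and 1.52 without those under the ceiling. All list medians kept their side of 1 under other scalings, except neutrophil enzymes at 24 h (0.956, against 1.03 with human-table totals).

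Counts of calls depended strongly on scaling and tool, and the median log2 difference of all symbols at 12 h against the controls was 0.85 with pig-table totals, 0.26 with human-table totals and 0.04 with TMM. At 12 h against the controls, 6927 symbols were higher (4072 with TMM, 1897 with DESeq2 size factors) and 562 lower (3470 with TMM, 2450 with human-table totals, 1832 with DESeq2). The other counts follow for TMM, human-table totals, DESeq2 and DESeq2 with pig-table totals, in that order. At 24 h against 12 h, 5 symbols were higher (276, 204, 43, 2) and 5 lower (88, 81, 9, 2), with 1 selected symbol lower (6, 6, 0, 0). At 48 h against 12 h, 241 were higher (767, 761, 146, 78) and 29 lower (287, 247, 58, 12), with 20 selected symbols higher (67, 66, 9, 5) and 5 lower (12, 10, 0, 0). The cause was not tested. No called result and no median log2 difference of the selected symbols changed direction. The median over all symbols at 24 h against 12 h was -0.15 with pig-table totals and 0.0005 with TMM, so its sign depended on scaling. Leaving out a control left no residual degree of freedom, so those fits were not made. No paired analysis was possible because each time had 1 biopsy and the labels number only the controls. At 10 to 20 counts, depth limits each ratio.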

Other observations

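Some gene families, grouped after their values were seen and given without a test, were selected almost whole. All 7 SIGLEC genes with 10 or more counts at 12 h were selected, as were all 6 CD300 genes, all 5 apolipoprotein L genes, all 4 APOBEC3 genes and all 3 formyl peptide receptor genes. The shared background is 4.78% of symbols. The APOBEC3 genes, cytidine deaminases that restrict viruses, had a median ratio of 1.76 at 48 h to 12 h, and the apolipoprotein L genes 2.82. None of the 5 apolipoprotein L and 4 APOBEC3 symbols named a pig-table gene. By contrast, 1 of 8 Toll-like receptor genes with 10 or more counts was selected.

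Zinc finger genes of the ZNF family made up 83 of the selected symbols, or 21.9% of the 379 ZNF genes with 10 or more counts at 12 h. Their highest count was 126 and their median ratio at 48 h was 1.69. Of 13 snoRNA host genes with 10 or more counts, 11 were selected. Symbols that name clones, LINC transcripts, antisense transcripts or snoRNA hosts numbered 134 and held 3.97% of the selected counts. The share selected among all symbols of these kinds was not computed. Keratin symbols supplied 18 selected names, or 18.4% of the 98 keratin symbols with 10 or more counts at 12 h. Of these 18, all but KRT79 and KRT6C are named as pseudogenes of KRT8, KRT18 or KRT19. They had 10 to 42 counts at 12 h and a median ratio of 0.691 at 48 h, opposite in side to the 1.495 of all selected symbols, and reads of near-identical keratin copies cannot be assigned with certainty.

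CXCR2P1, the pseudogene of CXCR2, had 30, 50 and 193 counts at 12, 24 and 48 h, and edgeR called it higher at 48 h than at 12 h by 2.85 ± 0.61 on the log2 scale (SE, adjusted p = 0.000563). The call was lost with DESeq2, with adjusted p = 0.248 for its size factors and 0.285 for pig-table totals. CXCR2 itself had 163, 195 and 100 counts. RNASE1, a secreted ribonuclease gene of endothelium and other tissues, had 630, 803 and 710 counts, against the lower counts of most selected symbols at 24 h.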
